A study of Mus musculus with 6 samples.

Results

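SND1 (*Snd1*) is a coregulator that is brought to genes by other proteins, and 9 genes for proteins known to work with it in transcription were followed here in mouse β cells with and without an intact *Snd1* gene. The 9 genes were listed by name from what is known of SND1, and are *Mtdh*, *Stat5a*, *Stat5b*, *Stat6*, *Crebbp*, *Ep300*, *Myb*, *Pim1* and *E2f1*. They are 9 of the 53808 mouse genes with deposited values, and all 9 were among the 17823 that entered the test, which needed an average of 0.5 TPM or more. TPM, the unit of the deposited values, is a gene's share of a library corrected for gene length, with 1000000 as the total of a library.

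Messenger RNA was sequenced from 6 lines of MIN6, a mouse insulinoma line used as a model of the β cell. All lines expressed Cas9 and carried a guide RNA against *Snd1* delivered by lentivirus. In the 3 control lines Cas9 was directed to intron 2, and in the 3 *Snd1* KO lines to exon 2. Each line was grown from a single cell and gave 1 library, so the spread within a group is the spread between 3 clones. The question of the comparison is whether the RNA of SND1's partners differed once *Snd1* was edited.

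SND1 has no DNA-binding domain of the usual kind and acts as a bridge. With metadherin (*Mtdh*) it forms an oncogenic complex, with STAT5 and STAT6 it links cytokine signals to the general transcription machinery, and it binds the acetyltransferases CBP (*Crebbp*) and p300 (*Ep300*), which open chromatin at enhancers. It was first described as a coactivator of the Epstein-Barr virus factor EBNA2 and of MYB, whose activity with SND1 is raised by the kinase PIM1, and it works with the cell cycle factor E2F1. In β cells STAT5 is known for carrying prolactin and growth hormone signals to proliferation genes, and CBP and p300 for coactivating islet transcription factors.

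The 250 bases before annotated starts are shown for the member with the largest difference (*Myb*), for the STAT5 pair, which varied together across the clones, and for the *Pim1* start that held the most matches. RefSeq (GRCm38.p6) gave a promoter window for 8 of the 9 genes, with 2 starts each for *Stat5a*, *Stat5b* and *Pim1*. By the gene coordinates given below, the windows of *Myb* and *Stat6* lay wholly outside the gene, and the first windows of *Stat5b* and *Pim1* partly. All other windows, those of the second starts among them, lay inside the gene. Promoters were searched on both strands for the STAT5 motif TTCNNNGAA, the STAT6 motif TTCNNNNGAA, the E2F motifs TTTGGCG and TTTCGCG, the cAMP response element TGACGTCA bound by CREB, and the MYB motifs TAACNG and CAACNG. Of 32851 promoter windows of this length, 7.02% held the STAT5 motif, 5.85% the STAT6 motif, 1.93% an E2F motif, 1.55% the cAMP response element and 43.1% a MYB motif. Capitals mark matches in the first pair of sequences, and in the second pair the longest run of bases shared by both.
*Myb*, minus strand, chr10:21160985-21161234: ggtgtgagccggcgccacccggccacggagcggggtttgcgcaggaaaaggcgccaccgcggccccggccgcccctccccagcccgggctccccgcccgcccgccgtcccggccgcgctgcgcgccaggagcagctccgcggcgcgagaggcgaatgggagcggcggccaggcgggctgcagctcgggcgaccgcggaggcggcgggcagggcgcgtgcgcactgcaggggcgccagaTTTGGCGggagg
*Pim1* second start, plus strand, chr17:29492835-29493084: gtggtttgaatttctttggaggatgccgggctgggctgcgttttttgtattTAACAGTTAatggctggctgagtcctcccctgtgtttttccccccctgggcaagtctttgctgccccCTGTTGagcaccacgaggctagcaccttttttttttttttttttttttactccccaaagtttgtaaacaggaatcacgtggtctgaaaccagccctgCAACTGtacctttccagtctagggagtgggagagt
*Stat5a* second start, plus strand, chr11:100860234-100860483: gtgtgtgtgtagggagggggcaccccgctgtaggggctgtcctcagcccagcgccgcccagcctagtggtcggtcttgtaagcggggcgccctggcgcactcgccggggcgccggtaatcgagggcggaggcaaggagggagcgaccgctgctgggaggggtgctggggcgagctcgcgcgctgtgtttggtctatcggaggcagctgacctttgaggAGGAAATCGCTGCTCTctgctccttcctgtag
*Stat5b* second start, minus strand, chr11:100822571-100822820: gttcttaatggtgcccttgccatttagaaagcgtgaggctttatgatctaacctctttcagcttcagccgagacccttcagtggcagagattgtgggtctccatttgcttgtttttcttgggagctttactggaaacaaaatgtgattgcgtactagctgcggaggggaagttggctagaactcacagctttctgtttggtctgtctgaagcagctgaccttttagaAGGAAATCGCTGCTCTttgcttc
The *Myb* window held an E2F motif, TTTGGCG, 12 to 6 bases before the start, and was the only one of the members' 11 windows with an E2F match. The *E2f1* window lay inside the gene, so the bases before the outer end of *E2f1* were not searched. The second *Pim1* window held 4 MYB matches, of which the first and second overlap, and no other member window held a MYB match. The windows of the second *Stat5a* and *Stat5b* starts shared a run of 16 bases, AGGAAATCGCTGCTCT, which lay 32 to 17 bases before the *Stat5a* start and 23 to 8 bases before the *Stat5b* start. The first starts of the pair shared no run above 7 bases. No member window held a STAT5, STAT6 or CREB match. A match is a description of the letters, and no binding was measured here.

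The recovered depths were 23700630 to 30454383 reads on genes, more than the methods state per library, so the ends of a pair may have been counted apart. *Snd1* itself was at 113, 119 and 112 TPM in control 1 to 3 and at 14.8, 57.1 and 19.9 TPM in *Snd1* KO 1 to 3, so every edited clone was below every control clone and *Snd1* KO 2 kept the most RNA. The log2 fold change of *Snd1* was -2.11 ± 0.45 (SE, n = 3 and 3), with an unadjusted p of 0.00258 and a limma adjusted p of 0.511. The β cell markers were high in every clone, with *Ins2* between 11190 and 18630 TPM and *Pdx1* between 1634 and 2164 TPM. Markers of endothelial, mesenchymal, ductal and acinar cells summed to at most 2.53 TPM per list and clone, and the immune markers to at most 6.49 TPM. *Snd1* KO 1 stood apart among islet hormones, since *Gcg* (glucagon) was at 1100 TPM there and between 55.2 and 314 TPM in the other clones. Control 1 and 2 also stood apart, with a correlation of 0.980 across genes between them against 0.915 to 0.945 with the other clones. Their mesenchymal markers summed to 2.15 and 2.53 TPM against 0.157 to 0.694 TPM elsewhere, and their immune markers to 6.49 and 6.04 against 1.81 to 3.07 TPM. *Slc30a8*, a zinc transporter among the 10 β cell markers, was at 216 and 191 TPM against 744 to 1005 TPM. The β cell markers did not all follow it, since *Ins2* was at 14480 and 13980 TPM there against 11190 to 18630 TPM. Together the 10 markers summed to 44300 and 48410 TPM in control 1 and 2. The sum was 48810 TPM in *Snd1* KO 1 and 66890 to 83150 TPM in the remaining clones. *Snd1* KO 2 and 3, the clones with the highest *Stat5a*, *Stat5b*, *Pim1* and *E2f1*, formed another pair, at 0.974 with each other against 0.915 to 0.955 with the other clones. The part of these values in the results was not tested. Differences that changed most with *Snd1* KO 1 left out are therefore also given without it.

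None of the 9 partner genes passed the test in *Snd1* KO against control. A gene was called when its limma adjusted p was under 0.05 and the groups differed 2-fold or more, a call made for 0.00561% of all genes tested, which was 1 gene, the small nucleolar RNA *Gm24966* (named after its value was seen). *Myb* had the largest difference of the 9 and was the only one with an unadjusted p under 0.05. Genes with an unadjusted p under 0.05 made up 5.63% of all genes tested in the higher direction, against 1 of 9 members, and 2.33% in the lower direction, against 0 of 9. In 3 members, *Mtdh*, *Crebbp* and *Myb*, every *Snd1* KO clone was above every control clone, a pattern held by 9.69% of all genes. No member had every *Snd1* KO clone below every control clone, a pattern held by 4.03% of all genes. Under quantile normalization these shares were 6.64% above and 7.55% below, with *Ep300* added above and *Stat6* below. With 3 clones in each group the smallest p of the exact two-sided permutation test is 0.1, and *Mtdh*, *Crebbp* and *Myb* reached it. The log2 fold change was above 0 for 8 of 9 members, *Stat5b* by 0.0041 only and below 0 under quantile or median ratio scaling, against 57.3% of all genes, and the median over members was 0.16 against 0.044 over all genes tested.

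**Figure D1:**
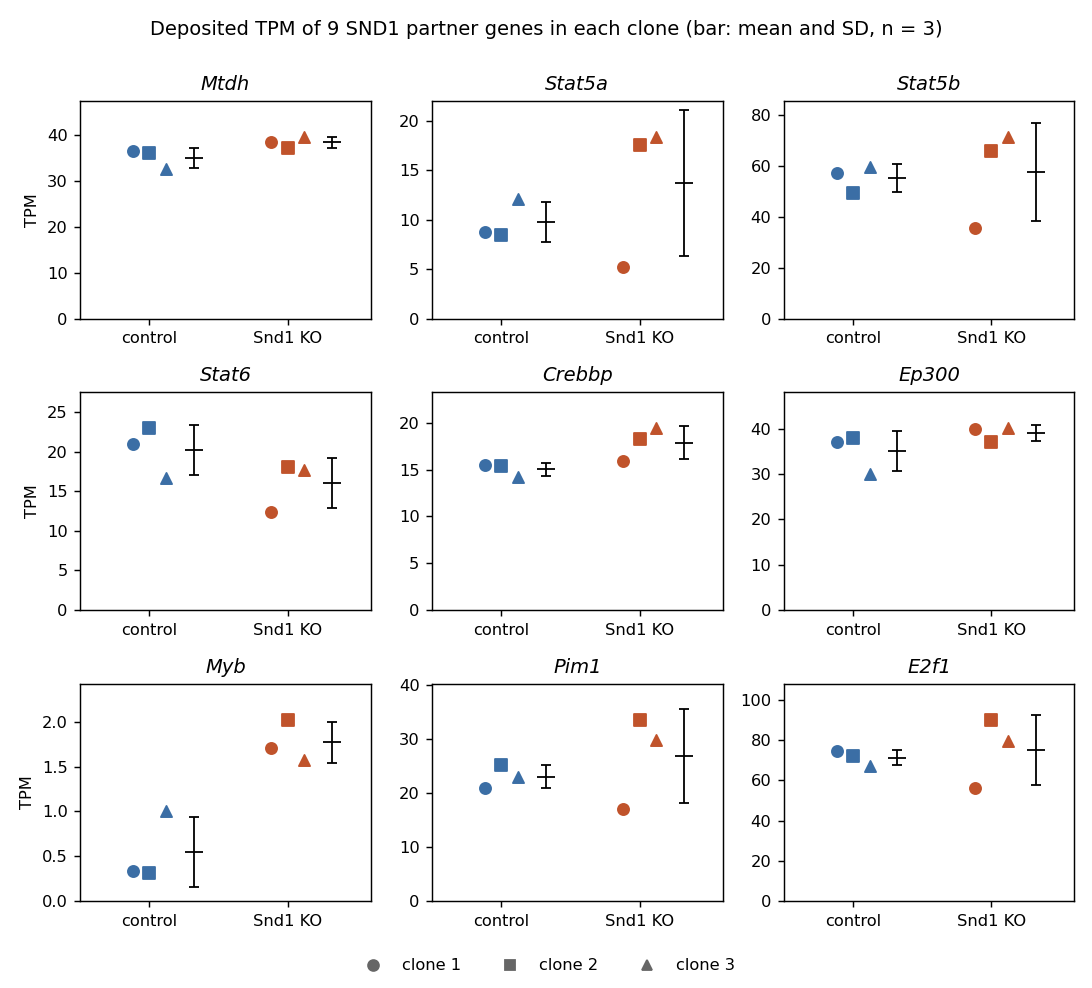
Deposited TPM of each partner gene (vertical axis from 0, its own scale in each panel) in the 3 control and 3 *Snd1* KO clones, with the group mean and SD beside the points; the same marker in both groups marks the same clone number and no pairing. *Myb* is below 1.1 TPM in control and above 1.5 TPM in *Snd1* KO clones, and *Snd1* KO 1 is the lowest point for *Stat5a*, *Stat5b*, *Stat6*, *Pim1* and *E2f1*.

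Metadherin, a scaffold protein anchored in the endoplasmic reticulum membrane and also found in the nucleus, binds SND1 directly. *Mtdh* (ENSMUSG00000022255, chr15:34082694-34145624) was at 36.6, 36.2 and 32.6 TPM in the 3 controls and at 38.6, 37.3 and 39.6 TPM in *Snd1* KO 1 to 3. The lowest edited clone was only slightly above the highest control clone, so the groups were separate but close. Limma put the log2 fold change at 0.13 ± 0.10 (SE, n = 3 and 3) with a 95% interval of -0.11 to 0.37 and a limma adjusted p of 0.757. On the fold scale the interval ran from 0.925 to 1.29, which leaves out any change of *Mtdh* RNA as large as 2-fold.

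STAT5 comes from a pair of near-identical neighbouring genes. *Stat5a* (ENSMUSG00000004043, chr11:100859351-100885169, plus strand) and *Stat5b* (ENSMUSG00000020919, chr11:100780731-100850724, minus strand) point away from each other with 8626 bases between them, and reads of the pair may be split between them by the authors' counting. *Stat5a* was at 8.73, 8.44 and 12.1 TPM in control clones and at 5.25, 17.6 and 18.4 TPM in *Snd1* KO clones. *Snd1* KO 1 was the lowest of all 6 clones and the other edited clones the highest, so the groups overlapped. On the log2 scale the difference was 0.30 ± 0.45 (SE, n = 3 and 3), with an interval of -0.76 to 1.37 and a limma adjusted p of 0.877.

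*Stat5b* was at 57.3, 49.3 and 59.5 TPM in control and at 35.8, 66.1 and 71.5 TPM in *Snd1* KO clones. It had the same order of clones as *Stat5a*, with *Snd1* KO 1 lowest and *Snd1* KO 3 highest. Its log2 fold change was 0.0041 ± 0.26 (SE, n = 3 and 3), with an interval of -0.62 to 0.63 and a limma adjusted p of 0.998. Over the 6 clones *Stat5a* and *Stat5b* had a Pearson's r of 0.946 and a Spearman's rho of 1.0 for log2(TPM + 1), and r was 0.927 over the 5 clones without *Snd1* KO 1. The points of this correlation share libraries and scaling, and it is given as a description.

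The ratio of *Stat5a* to *Stat5b* TPM within a clone does not depend on the scaling of the library. The controls had ratios of 0.152, 0.171 and 0.203, and the edited clones had ratios of 0.147, 0.266 and 0.257. *Snd1* KO 1 had the lowest ratio and the other edited clones the highest. The log2 ratio averaged -2.52 ± 0.21 over controls (SD, n = 3) and -2.21 ± 0.48 over edited clones (SD, n = 3), with p = 0.4 by the exact two-sided permutation test. On the opposite strand *Stat5a* overlaps *Stat3*, which had between 2302 and 2492 reads in the controls and between 2357 and 3529 in the edited clones. Whether the counting used strand is not given in the sources used here.

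STAT6, the factor of interleukin 4 and interleukin 13 signals which SND1 serves as a coactivator, had the only negative difference of the 9. *Stat6* (ENSMUSG00000002147, chr10:127642986-127660957) was at 20.9, 22.9 and 16.7 TPM in control and at 12.4, 18.1 and 17.6 TPM in *Snd1* KO clones. Control 3 was below *Snd1* KO 2 and 3, so the groups overlapped. The log2 fold change was -0.32 ± 0.19 (SE, n = 3 and 3), with an interval of -0.78 to 0.14 and a limma adjusted p of 0.686. Without *Snd1* KO 1 it was -0.16 (limma adjusted p = 0.690). *Nab2*, which overlaps *Stat6* on the opposite strand, held 572, 498 and 401 reads in the controls against 253, 287 and 355 in the edited clones. *Stat6* itself held 742, 772 and 511 reads in the controls against 397, 557 and 582 in the edited clones. *Nab2* was thus lower in every edited clone, and its part in the *Stat6* values was not tested.

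CBP and p300 are paralogous lysine acetyltransferases that acetylate histone H3 at active enhancers. *Crebbp* (ENSMUSG00000022521, chr16:4081328-4213997) was at 15.5, 15.3 and 14.2 TPM in control and at 15.9, 18.2 and 19.4 TPM in *Snd1* KO clones. Every edited clone was above every control clone, with *Snd1* KO 1 close to the controls. Limma put the log2 fold change at 0.23 ± 0.13 (SE, n = 3 and 3), with an interval of -0.069 to 0.53 and a limma adjusted p of 0.646.

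*Ep300* (ENSMUSG00000055024, chr15:81585351-81652077) was at 37.2, 37.9 and 30.0 TPM in control and at 40.0, 37.1 and 40.1 TPM in *Snd1* KO clones. Control 3 was the lowest clone, while *Snd1* KO 2 lay just below the other controls. Without control 3 the log2 fold change of *Ep300* was 0.053 and that of *Mtdh* was 0.078, against 0.16 and 0.13 with it. On the log2 scale the difference was 0.16 ± 0.13 (SE, n = 3 and 3), with an interval of -0.14 to 0.46 and a limma adjusted p of 0.758. The intervals of *Crebbp* and *Ep300* reached at most 1.45-fold and 1.38-fold. The ratio of *Crebbp* to *Ep300* ran from 0.405 to 0.474 in control and from 0.398 to 0.492 in *Snd1* KO clones, a log2 difference of 0.083 with p = 0.6 by the exact two-sided permutation test (n = 3 and 3).

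MYB is a transcription factor of progenitor and leukemic blood cells, and it was the scarcest of the partners in MIN6. *Myb* (ENSMUSG00000019982, chr10:21124935-21160984) was at 0.343, 0.312 and 1.0 TPM in control and at 1.71, 2.02 and 1.58 TPM in *Snd1* KO clones. Every edited clone was above every control clone, and control 3 lay between control 1 and 2 and the edited clones. The control mean was 0.552 ± 0.389 TPM (SD, n = 3), and the mean of the edited clones was 1.77 ± 0.227 TPM (SD, n = 3), a ratio of 3.2. On the log2(TPM + 1) scale, which understates the change of low genes, the fold change was 0.86 ± 0.27 (SE, n = 3 and 3), with an interval of 0.23 to 1.49, an unadjusted p of 0.0152 and a limma adjusted p of 0.568.

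The reads behind *Myb* were few. They numbered 29, 25 and 73 in the controls and 130, 148 and 124 in the edited lines, and the number of fragments is smaller if both ends were counted. Control 1 and 2, the clones with the lowest *Myb*, were also a pair that stood apart from the other libraries. Without both of them the ratio of means was 1.77 (1 control against 3 edited clones, no test), and without control 3 it was 5.4. Without any 1 clone the log2 fold change lay between 0.75 and 1.06. With weights for the quality of each clone it was 0.96 with a limma adjusted p of 0.0253, which is under the 2-fold limit, and over all alternatives its adjusted p ran from 0.0253 to 0.983. The gene that overlaps *Myb* on the opposite strand, *Gm26577*, held at most 1 read. The markers of immune cells, in whose progenitors *Myb* is best known, summed to between 1.81 and 6.49 TPM in the controls and between 2.26 and 3.07 TPM in the edited clones, with *Ptprc* at most 0.0487 TPM.

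PIM1 is a serine and threonine kinase that is switched on by STAT5 in many cells. *Pim1* (ENSMUSG00000024014, chr17:29490753-29496112) was at 20.97, 25.2 and 23.0 TPM in control and at 17.1, 33.5 and 29.9 TPM in *Snd1* KO clones. *Snd1* KO 1 was below all controls and the other edited clones were above all of them. The log2 fold change was 0.16 ± 0.25 (SE, n = 3 and 3), with an interval of -0.43 to 0.76 and a limma adjusted p of 0.883. The antisense gene *Gm26885* overlaps it and held few reads, at least 9 to 30 in the controls and at least 12 to 16 in the edited clones.

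E2F1 drives genes of DNA replication when released from the retinoblastoma protein. *E2f1* (ENSMUSG00000027490, chr2:154559407-154569892) was at 74.4, 72.1 and 67.3 TPM in control and at 56.2, 90.0 and 79.2 TPM in *Snd1* KO clones. Again *Snd1* KO 1 was the lowest clone and *Snd1* KO 2 and 3 were the highest. Limma put the log2 fold change at 0.05 ± 0.18 (SE, n = 3 and 3), with an interval of -0.38 to 0.48 and a limma adjusted p of 0.957. The 6 proliferation markers summed to 1168 to 1412 TPM in control and 1358 to 1414 TPM in *Snd1* KO clones, and none of them was separate between the groups.

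**Figure D2:**
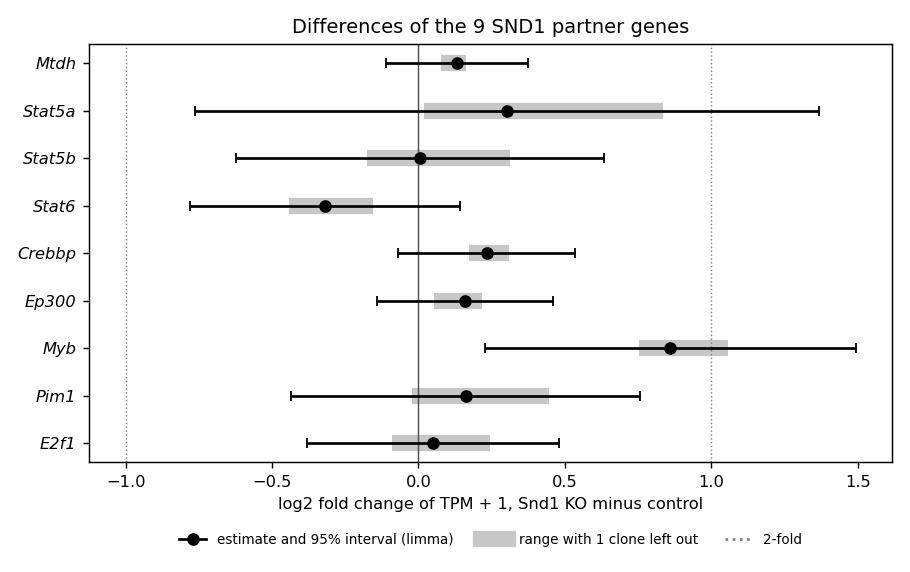
Log2 fold change of TPM + 1 (horizontal axis, *Snd1* KO minus control) for each partner gene, with points and black bars for the limma estimate and its 95% interval, grey bars for the range when 1 clone is left out, and dotted lines at 2-fold. Only the interval of *Myb* (0.23 to 1.49) lies clear of 0, and the grey bars of *Stat5b*, *Pim1* and *E2f1* cross 0.

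The spread among the edited clones was wider than the difference between the groups for the STAT5 pair, *Pim1* and *E2f1*. The SD of TPM in *Snd1* KO against control clones was 7.37 against 2.03 for *Stat5a*, 19.2 against 5.37 for *Stat5b*, 8.62 against 2.13 for *Pim1* and 17.2 against 3.65 for *E2f1* (n = 3 each). In 5 of 9 members *Snd1* KO 1 was the lowest of the 6 clones, against 19.9% of all genes tested. With this clone left out, 7 members had both remaining edited clones above every control clone (*Mtdh*, *Stat5a*, *Stat5b*, *Crebbp*, *Myb*, *Pim1* and *E2f1*), against 22.6% of all genes. None of them passed the test in that fit either. The log2 fold change without *Snd1* KO 1 was 0.84 ± 0.19 for *Stat5a* (SE, n = 3 and 2, limma adjusted p = 0.202), and it was 0.44 ± 0.13 for *Pim1* (limma adjusted p = 0.254). For *Stat5b* it was 0.31 ± 0.12 (limma adjusted p = 0.332), and for *E2f1* it was 0.24 ± 0.10 (limma adjusted p = 0.371). *Myb* and *Crebbp* moved little, to 0.87 ± 0.29 and 0.31 ± 0.11. With control 3 left out, every edited clone was above both controls for *Mtdh*, *Crebbp* and *Myb*, as for 17.2% of all genes, and below both for *Stat6*, as for 17.8%.

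**Figure D3:**
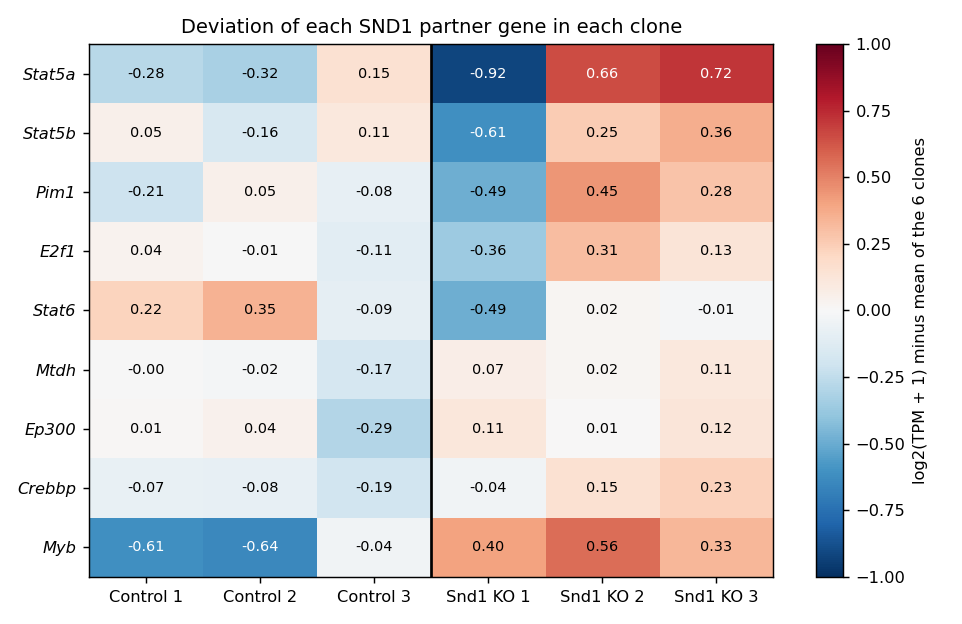
Deviation of log2(TPM + 1) from the mean of the 6 clones (color and printed values) for each partner gene (rows) in each clone (columns, the line divides control from *Snd1* KO). *Stat5a*, *Stat5b*, *Pim1* and *E2f1* are low in *Snd1* KO 1 (-0.92 to -0.36) and above their mean in *Snd1* KO 2 and 3, whereas *Myb* is above its mean in all *Snd1* KO clones (0.33 to 0.56).

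How alike the partners were from clone to clone depended on *Snd1* KO 1 for several pairs. *Pim1* followed *E2f1* with a Pearson's r of 0.920 and a Spearman's rho of 0.829 over the 6 clones, and r was 0.833 without *Snd1* KO 1. *Stat5a* and *Pim1* had an r of 0.915 and a rho of 0.771, with r at 0.828 without that clone. *Mtdh* and *Ep300* had an r of 0.957 and a rho of 0.771, and r was 0.950 without it. *Stat5b* and *Myb* had an r of 0.0937 and a rho of 0.314, but r was 0.873 without that clone. For *Stat5a* and *Myb*, r went from 0.367 (rho 0.314) to 0.978 without it, and for *Pim1* and *Myb* from 0.279 (rho 0.257) to 0.832. *Stat6* turned sign without that clone, from 0.291 (rho 0.0286) to -0.761 with *Stat5a*, from 0.485 (rho 0.0286) to -0.779 with *Stat5b*, from 0.455 (rho 0.371) to -0.330 with *Pim1* and from 0.604 (rho 0.486) to -0.129 with *E2f1*. Each correlation is a description over 6 libraries that also share their scaling. It carries no test.

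Among 11368 genes that averaged 5 TPM or more, the genes most like each partner across the 6 clones had a Pearson's r between 0.989 and 0.999 for log2(TPM + 1), and each is given only as a pattern over few points. Those of *Mtdh* were *Lcorl*, *Rala* and *Papola*. *Stat5a* was followed most closely by *Twnk*, *Syt7* and *Gm3531*, and *Stat5b* by *Tspan15*, *Pgpep1* and *Gm4430*. The nearest to *Stat6* were *Evi5l*, *Decr1* and *Isoc2a*. For *Crebbp* they were *Dyrk2*, *Dynlt1-ps1* and *4732491K20Rik*, and for *Ep300* *Scai*, *Rnf103* and *Cpeb2*. *Myb* had *Avil* and *Tmem131l*, *Pim1* had *Ddit4*, *1700086L19Rik* and *Mob3c*, and *E2f1* had *Exosc2*, *Zfp692* and *Wdfy1*.

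Levels of different genes were compared as TPM with each exon base counted once, since the deposited values appear to divide by the summed length of all transcripts. Over the 6 clones *E2f1* was at 85.4 ± 13.04 (SD) and *Stat5b* at 75.4 ± 16.9, and *E2f1* was the higher in 4 of 6 clones. *Mtdh* followed at 41.1 ± 2.78 and *Ep300* at 38 ± 3.86, and *Mtdh* was the higher in 6 of 6 clones. *Crebbp* at 22.1 ± 2.67, *Stat5a* at 18.8 ± 8.49 and *Stat6* at 17.1 ± 3.34 were not in a fixed order, since *Crebbp* was above *Stat5a* in 3 of 6 clones and *Stat5a* above *Stat6* in 3 of 6. Thus *E2f1* and *Stat5b* had the most RNA per exon length, and *Myb*, at 1.29 ± 0.805, was the scarcest in 6 of 6 clones. *Pim1* was left out of this order because the length used for it by the authors could not be recovered without doubt.

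The genes around the partners were read from the same fit in 6 lists of 140 genes, of which 122 entered the test. None of the 122 was called. An unadjusted p under 0.05 was found for 6 in the higher direction and 1 in the lower, beside 5.63% and 2.33% of all genes. Every edited clone was above every control for 14 of them and below for 1, beside 9.69% and 4.03% of all genes. The median log2 fold change over these genes was 0.077.

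In STAT5 and STAT6 signaling, 0 of 32 genes tested were called, 2 had an unadjusted p under 0.05 in the higher direction and 1 in the lower, beside the same shares of all genes, and the median log2 fold change was 0.046. *Jak2*, the kinase below the prolactin and growth hormone receptors, was at 20.8, 20.1 and 31.0 TPM in control and at 34.1, 37.7 and 54.7 TPM in *Snd1* KO clones. Its log2 fold change was 0.79 ± 0.24 (SE, n = 3 and 3, limma adjusted p = 0.568). *Ptpn2*, a phosphatase that removes phosphate from JAK and STAT proteins, was at 14.7, 11.8 and 21.4 TPM in control and at 34.6, 25.3 and 23.5 TPM in *Snd1* KO clones (log2 fold change 0.78 ± 0.25, limma adjusted p = 0.568). Both genes are named because their groups did not overlap, which held for 3 of the 32 genes of the list, beside 9.69% of all genes for the higher direction. *Il13ra1*, a receptor chain for interleukin 13 upstream of STAT6, was at 1.18, 1.14 and 2.45 TPM in control and at 15.4, 3.31 and 2.53 TPM in *Snd1* KO clones. *Snd1* KO 1 was the highest and *Snd1* KO 3 was just above control 3, and the log2 fold change was 1.32 with and 0.63 without *Snd1* KO 1. The 6 STAT targets tested had a median of -0.23.

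The list of 22 genes around CBP and p300 held coactivators and also 4 deacetylases. Of the 22, 0 were called, and 4 had an unadjusted p under 0.05 in the higher direction and 0 in the lower, beside 5.63% and 2.33% of all genes. Higher in every edited clone were 7 of the 22, beside 9.69% of all genes, and 3 of these 7 were deacetylases. Their median log2 fold change was 0.069. *Cited2*, an adaptor that binds the CH1 domain of CBP and p300, was at 43.4, 43.2 and 33.5 TPM in control and at 48.4, 70.4 and 67.7 TPM in *Snd1* KO clones (log2 fold change 0.61 ± 0.18, limma adjusted p = 0.568). *Creb1*, the cAMP-responsive factor that recruits CBP, was at 15.0, 15.2 and 12.1 TPM in control and at 18.2, 18.2 and 19.2 TPM in *Snd1* KO clones (log2 fold change 0.38 ± 0.13, limma adjusted p = 0.589). *Hdac1*, a deacetylase that opposes these enzymes, was at 95.9, 90.2 and 85.0 TPM in control and at 102, 123 and 108 TPM in *Snd1* KO clones (log2 fold change 0.29 ± 0.11, limma adjusted p = 0.605).

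Beside the counts of separate genes in the lists that follow stand 9.69% of all genes above and 4.03% below. Of 11 genes of the MYB and PIM families, their targets and substrates, 0 were called and 0 were separate between the groups, with a median of 0.17. Of 37 E2F and pocket protein genes, 0 were called and 1 was higher in every edited clone, *Pola1* of the DNA polymerase that primes replication, which was at 34.9 to 42.6 TPM in control and 42.8 to 44.5 TPM in *Snd1* KO clones. Above 0 were 2 of 7 E2F factors and 19 of 25 E2F targets, beside 57.3% of all genes, with medians of -0.071 and 0.11 beside 0.044. Of 14 NF-kB and metadherin genes tested, 0 were called, with a median of 0.090. Higher in every edited clone were *Rel*, an NF-kB subunit, *Ikbkb*, the kinase that frees NF-kB, and *Tnfaip3*, its inhibitor, with log2 fold changes of 0.29, 0.27 and 0.27. *Nfkbib*, which holds NF-kB in the cytoplasm and was named after its values were seen, was the 1 gene lower in every edited clone, at 21.4 to 23.2 TPM in control and 18.1 to 18.9 TPM in *Snd1* KO clones. Of the 6 general transcription partners of SND1, 0 were called and 0 were separate.

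**Figure D4:**
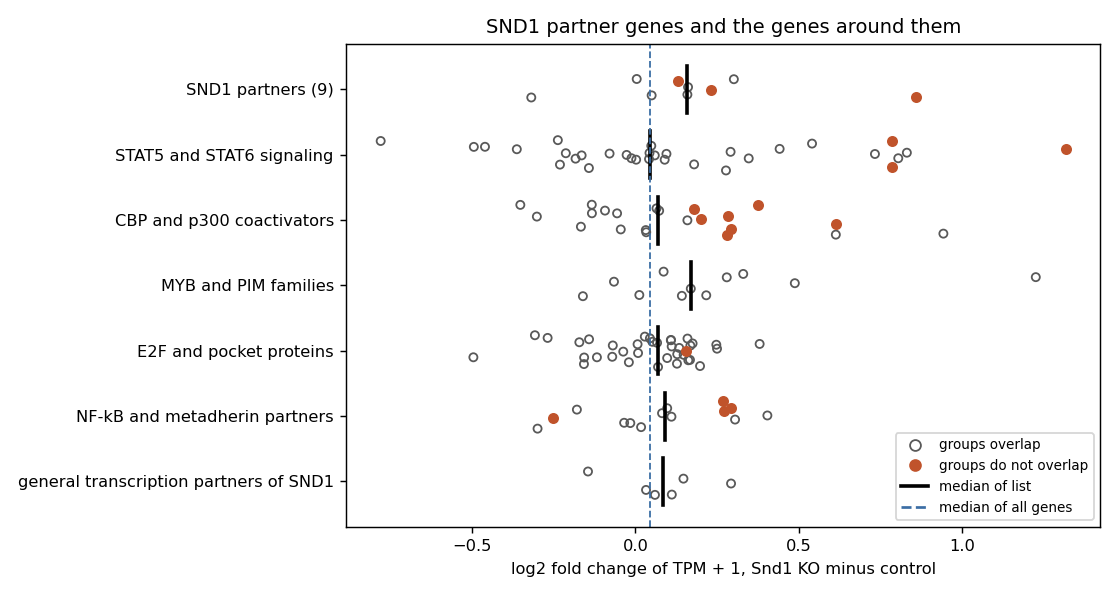
Log2 fold change of TPM + 1 (horizontal axis, *Snd1* KO minus control) of the 9 partners and of the tested genes of 6 lists around them, with filled points where control and *Snd1* KO clones do not overlap, black bars at each list's median and a dashed line at the median of all genes (0.044). The medians lie between 0.046 and 0.17, and all filled points but that of *Nfkbib* are above 0.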

How the data were processed

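Messenger RNA of 3 control and 3 *Snd1* KO clones of MIN6 cells, labelled by genotype and numbered in the sample titles, was sequenced as paired ends. The reads were processed by the authors in Genialis software, and the processing notes name Trimmomatic, HISAT2, HTSeq, DESeq2 and mm10 without versions. They deposited TPM per gene, which summed to 1000000 in each clone, for 53808 mouse genes and for 92 ERCC controls that were left out (at most 1.02 TPM). GENCODE M21 (GRCm38) matched 53706 genes.

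Whole reads were recovered as TPM times the exon lengths of every annotated transcript added up. Of 14851 genes averaging 1 TPM or more, 91.7% came out whole in all clones (within 0.01), against 22.6% with each exon base counted once. For 1780 genes, *Pim1* among them, the shortest length that gave whole reads was taken, so their reads and the depths are lower limits. The depths exceed the reads per library that the methods state, so both ends of a pair may have been counted, which the sources used here do not give.

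Log2(TPM + 1) of the 17823 genes that averaged 0.5 TPM or more was fitted with limma 3.58.1 in R 4.3.3 (trend, Benjamini-Hochberg adjustment over all genes tested), which was tested on simulated data. Calls needed an adjusted p under 0.05 and a 2-fold change. Single values used exact two-sided permutation tests. Nothing in the labels beyond separate clones marks replicates as separate cultures, so p-values measure the spread between clones. The genes named were all members in every clone, up to 3 genes per list with the largest log2 fold change among those whose groups did not overlap, and the 3 genes most correlated with each member. Some genes that this rule names are not reported here. The members and lists were chosen with earlier results of these data known. The alternatives were pseudocounts of 0.1 and 0.01, no filter or 5 TPM, other scalings and variance models, clone weights, a replicate block, voom on recovered reads, other thresholds and leaving out each clone. Leaving out clones for the count of members without overlap, and leaving out control 1 and 2 together, were added after seeing the data.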

Additional observations from a re-analysis of the deposited data

How the results depend on the processing

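No member was called under any alternative run, and *Mtdh*, *Stat5a*, *Stat6*, *Crebbp*, *Ep300* and *Myb* kept their direction in all of them (*Myb* is below the 5 TPM filter and has no value there). *Stat5b* turned negative with quantile normalization (-0.0022), median ratio scaling (-0.039) and voom on recovered reads (-0.0036), and with 1 clone left out it ran from -0.18 to 0.31, negative without control 2 (-0.076), without *Snd1* KO 2 (-0.12) and without *Snd1* KO 3 (-0.18). With 1 clone left out *Stat6* ran from -0.44 to -0.16 (without *Snd1* KO 1), *Ep300* from 0.053 (without control 3) to 0.22, *Stat5a* from 0.019 (without *Snd1* KO 3) to 0.84 (without *Snd1* KO 1), *Pim1* from -0.021 (without *Snd1* KO 2) to 0.44, and *E2f1* from -0.092 (without *Snd1* KO 2), with -0.0014 without *Snd1* KO 3, to 0.24. Without control 1 and 2, chosen after seeing the data and with no test, *Stat5b* was -0.10, *Myb* 0.47, *Stat5a* 0.0013, *Stat6* -0.070, *Ep300* 0.37, *Mtdh* 0.23 and *E2f1* 0.13. With 1 clone left out the log2 difference of the *Stat5a* to *Stat5b* ratio ran from 0.16 to 0.58, and that of *Crebbp* to *Ep300* from 0.027 (without *Snd1* KO 2) to 0.18 (without *Snd1* KO 1). The cause of these changes was not tested. *Myb* on the log2 scale was 1.67 with a pseudocount of 0.1, 1.86 with 0.01 and 1.90 with voom, and no adjusted p of these fits passed 0.05.

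Of all genes, 1 was called, against 0 without the filter, 0 without the trend, 0 with voom, 2 at an adjusted p under 0.1, and 0 to 1 with 1 clone left out. With clone quality weights 895 genes were called, 0 of them members and 6 of them in the lists (*Jak2* and *Kit* among them, 0 in the main test), and that fit gave control 3 and *Snd1* KO 1 weights of 0.279 and 0.286 against 3.91 for *Snd1* KO 3. Members without overlap numbered 3, against 5 with quantile normalization, 4 with median ratio scaling (7.81% of all genes above and 6.64% below) and 3 to 7 with 1 clone left out, where 7 without *Snd1* KO 1 stands beside 22.6% of all genes above and 10.9% below. Without control 1 and 2 they numbered 4, beside 35.7% of all genes above and 14% below. Deviations from the group means had correlations of 0.115, -0.199 and -0.108 between same-numbered clones. The highest with another number were 0.0154, 0.140 and 0.250. With 3 clones in each group these values cannot decide whether the clone numbers mark pairs. With the replicate block 0 genes and 0 members were called. *Myb* had the fewest reads of the members (25 to 148).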
